A study of Mus musculus with 23 samples.

Results

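The comparison described here sets OT-I cells, which are CD8 T cells, against OT-II cells, which are CD4 T cells, both taken from mice that received A8B1-OVA. It rests on 6 of the 23 libraries of the series, the 3 OT-I libraries and the 3 OT-II libraries whose titles name A8B1-OVA, and the 6 libraries of both cell types after saline served as background. All groups used here came from C57BL/6 hosts that had been given OT-I and OT-II cells. The mice were injected 1 day after the transfer, with 1 ug of A8B1-OVA in one arm and with saline in the other. Cells were sorted 5 days after the transfer from spleens and lymph nodes that had been pooled, and the RNA of 3 mice was combined into each library before cDNA was made with the SmartSeq protocol. The agent A8B1 itself is not described in the sources used here; the title of the series speaks of antigen targeting to red blood cells and of anergy. The cell type label of the OT-II libraries reads "OT-i", while their source label reads CD4 T cells and their titles read OT2, so the receptor genes below serve as a check. Whether libraries of both cell types that share a number also share their mice is not said in the labels. The p-values below rest on the spread between pools of mice within groups, estimated from all 23 libraries of the series together unless said otherwise. Those 23 include libraries of both cell types from mice given free OVA, at a molar-equivalent or a higher dose. The free OVA groups are not compared here.

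OT-I and OT-II cells carry transgenic T cell receptors that recognise different peptides of ovalbumin (OVA), on class I and on class II molecules of the major histocompatibility complex. CD8 T cells are known for killing target cells with perforin and granzymes and for making interferon gamma and chemokines, whereas CD4 T cells are known for helping other cells through CD40 ligand and cytokines. A T cell that meets its antigen without full costimulation can become anergic, a state in which it raises inhibitory receptors and genes such as those of the Egr family and responds poorly when stimulated again. In such cells proliferation and the making of effector cytokines are restrained to different degrees.

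The deposited table gives estimated counts for 21900 protein-coding genes. Library totals ran from 52967958 to 73503642 counts in the OT-I libraries after A8B1-OVA and from 57485888 to 64846003 in the OT-II libraries. Levels are given as CPM, which are counts divided by the TMM-scaled size of the library, and a count of 0 allows at most 0.0632 CPM in the shallowest of these libraries. In every pair of libraries of one group, log2 CPM over genes correlated with an r between 0.975 and 0.980. Cd3e, a chain of the complex that carries every T cell receptor, was between 1064 and 1299 CPM in OT-I and between 995 and 1098 CPM in OT-II. In bulk RNA, fewer cells of a type and less RNA per cell cannot be told apart.

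The lineage genes matched the source labels and titles of all 6 libraries. Cd8a was at 1397, 1230.1 and 1219 CPM in OT-I replicates 1 to 3 and at 2.14, 1.79 and 1.12 CPM in OT-II replicates 1 to 3, the order used throughout. Every OT-I library was far above every OT-II library for this coreceptor chain of CD8 T cells, which lies on chromosome 6 from 71373427 to 71379173 on the plus strand of GRCm38, and the log2 fold change of OT-I over OT-II was 9.57 (SE 0.42, adjusted p = 4e-10 by edgeR). The other chain, Cd8b1, was between 1635 and 1945 CPM in OT-I and between 23.7 and 29.3 CPM in OT-II. For Cd4, the OT-I libraries gave 4.57, 16.3 and 2.5 CPM and the OT-II libraries 557, 583 and 549 CPM. The groups did not overlap for this coreceptor of CD4 T cells, although OT-I replicate 2 stood above the other OT-I libraries; the log2 fold change was -6.18 (adjusted p = 0.002), and -7.33 without that library. Zbtb7b was at 3.71, 2.15 and 1.15 CPM in OT-I and at 66.5, 88.9 and 82.6 CPM in OT-II. Zbtb7b encodes ThPOK, the factor that commits T cells to the CD4 lineage, and it was lower in all OT-I libraries by a log2 fold change of -5.11 (adjusted p = 0.00034). Of the 10 CD8 lineage genes 9 were called higher in OT-I and 1, Patz1, was not called, and of the 10 CD4 lineage genes 6 were called higher in OT-II, 2 higher in OT-I (Icos and Ctla4) and 2 were not called. The count of 2 was 1 without OT-I replicate 1 or OT-I replicate 2, and 0 without OT-II replicate 3; the Icos call was lost without OT-I replicate 2 or OT-II replicate 3. Runx3, the factor of the CD8 lineage, was higher in OT-I by 1.60 on the log2 scale (adjusted p = 2.5e-08).

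Across 15235 tested genes, 1864 (12.2%) were called higher in OT-I and 1271 (8.34%) higher in OT-II after A8B1-OVA, a gene being called at an adjusted p under 0.05. Of the calls toward OT-I, 711 were over 2-fold (4.67% of all tested genes) and 323 over 4-fold (2.12% of all tested genes). Of those toward OT-II, 501 were over 2-fold (3.29% of all tested genes) and 199 over 4-fold (1.31% of all tested genes). The libraries of the groups did not overlap for 4937 genes, which is 32.4% of those tested. The median log2 fold change over all tested genes was -0.0011. Leaving out OT-I replicate 2, OT-II replicate 1 or OT-II replicate 3 lowered the calls toward OT-I to 1072, 1161 and 1090, and the calls toward OT-II fell to 751 without OT-I replicate 2 and to 819 without OT-II replicate 1. With the spread estimated from the 6 libraries alone, 1062 and 871 genes were called.

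**Figure D1:**
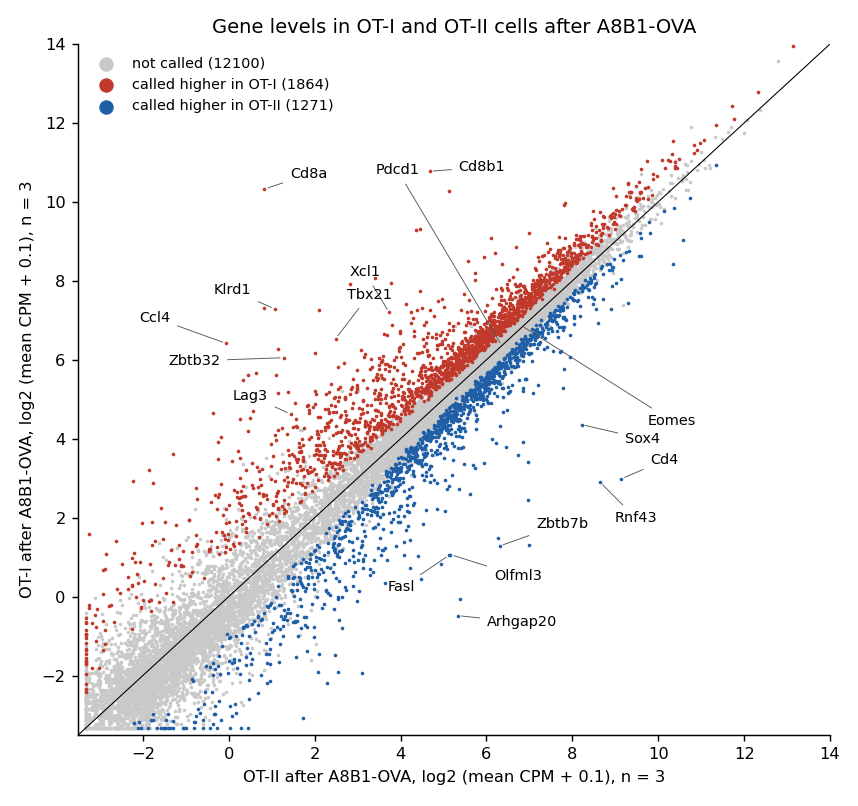
Mean levels of the 15235 tested genes in OT-II libraries (x axis) and OT-I libraries (y axis) after A8B1-OVA, as log2 of mean CPM plus 0.1 with n = 3 each; the line marks equal levels. Cd8a and Cd4 lie far from the line on either side, whereas Pdcd1 and Eomes lie on it.

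Between the saline libraries of the same cell types, 1273 genes (8.36%) were called higher in OT-I and 1083 (7.11%) higher in OT-II. These libraries are not those of the A8B1-OVA groups. Of the genes called higher in OT-I after A8B1-OVA, 841 were also called higher in OT-I after saline, which is 45.1% of the former and 66.1% of the latter. Of those called higher in OT-II, 653 were shared, which is 51.4% and 60.3%. Of the genes called toward OT-I and toward OT-II after A8B1-OVA, 10 and 4 were called the opposite way after saline. Cd8a, Cd8b1, Runx3, Cd4 and Zbtb7b were called in the same direction after both treatments, and after saline, Cd8a was at 1102, 1075 and 1135 CPM in OT-I and Cd4 at 631, 544 and 559.6 CPM in OT-II.

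The genes with the highest fold changes toward OT-I, among those called, at 10 CPM or more and without overlap, were Cd8a, Ccl4, Adgrg5, Klrd1, Cd8b1, Itgae, Haao, Cd163l1, Slc6a19, Plac8, Pde2a and Nkg7. The level of Klrd1 was 162, 153 and 154 CPM in the OT-I libraries and 1.9, 2.38 and 1.74 CPM in the OT-II libraries. Klrd1 is CD94, a chain of receptors shared with natural killer (NK) cells, and its log2 fold change was 6.28 (SE 0.28, adjusted p = 7.8e-11). For Itgae, the OT-I libraries gave 45.7, 39 and 50.7 CPM and the OT-II libraries 1.3, 1.39 and 0.81 CPM. Itgae is the CD103 integrin chain that binds E-cadherin; the OT-I libraries were all above the OT-II libraries (5.27, adjusted p = 5.3e-09). Nkg7, a protein of cytotoxic granules, was at 1539.9, 1156 and 1003 CPM in OT-I and at 38.4, 49.6 and 17.1 CPM in OT-II. Pde2a shares 63.7% of its sequence, in words of 31 bases, with other protein-coding genes. The overlapping gene model Gm45837 shares the most, so the level of Pde2a is uncertain. The lowest OT-II level of Cd163l1 was 0.0335 CPM, and without OT-II replicate 1 its log2 fold change was 6.95 in place of 5.26.

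The 12 genes at the other end were Cd4, Arhgap20, Rnf43, Ly6c1, Igsf23, Zbtb7b, St8sia6, Tspoap1, Penk, Olfml3, Fasl and Gpr83. Rnf43 was at 5.01, 9.51 and 7.52 CPM in OT-I and at 442, 374 and 385 CPM in OT-II. Rnf43 is an E3 ubiquitin ligase that removes Wnt receptors from the cell surface, and all OT-II libraries were far above all OT-I libraries (-5.77, SE 0.63, adjusted p = 2.2e-05). The level of Penk was 1.26, 2.53 and 1.22 CPM in the OT-I libraries and 36, 39.8 and 15.7 CPM in the OT-II libraries. Penk encodes preproenkephalin, the precursor of opioid peptides, and its groups did not overlap either (-4.19, adjusted p = 0.00076). Arhgap20, a GTPase-activating protein, was at 1.5, 0.159 and 0.194 CPM in OT-I and at 50.7, 31.7 and 38.6 CPM in OT-II, a log2 fold change of -6.06 that became -7.81 without OT-I replicate 1. Ly6c1 was lower in OT-I by a log2 fold change of -5.75, or -6.46 without OT-I replicate 2, while its neighbour Ly6c2 was higher by 5.10. The transcripts of these 2 surface proteins share 37.3% and 23.3% of their 31-base words with other protein-coding genes. Each of the 2 was the gene that shared the most with the other, so counts may have been split between them.

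Cytotoxic genes that were called were higher in OT-I, with Fasl as the exception. Of 25 tested members of the cytotoxic and effector list, 12 were called higher in OT-I, 1 higher in OT-II and 12 were not called, with a median log2 fold change of 1.04 against -0.0011 over all tested genes. The shares called over all tested genes were 12.2% and 8.34%. After saline the list also had 12 members called higher in OT-I and 1 in OT-II, with a median of 0.81. For Prf1, the OT-I libraries gave 101, 85.5 and 103 CPM and the OT-II libraries 19.2, 20.1 and 20 CPM. Perforin, the pore-forming protein of killer cells, was thus higher in each OT-I library (2.29, SE 0.17, adjusted p = 1.4e-08). Gzmb was at 6.09, 9.07 and 5.69 CPM in OT-I and at 1.7, 1.07 and 1.28 CPM in OT-II. Granzyme B stayed below 10 CPM in these 6 libraries, and its groups did not overlap (2.36, adjusted p = 0.01). The level of Ifng was 5.79, 6.13 and 4.97 CPM in the OT-I libraries and 1.96, 0.687 and 0.504 CPM in the OT-II libraries. Interferon gamma was likewise low but higher in all OT-I libraries (2.42, adjusted p = 0.0015), with a log2 fold change of 3.24 when OT-II replicate 1 was left out. For Tbx21, the OT-I libraries gave 91.3, 81.2 and 106 CPM and the OT-II libraries 6.34, 5.56 and 4.69 CPM. Tbx21, which encodes the effector factor T-bet, separated the groups without overlap (4.07, SE 0.37, adjusted p = 8.1e-07).

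Fas ligand was the member called toward OT-II. Fasl was at 2.02, 2.21 and 1.68 CPM in OT-I and at 33.6, 37.8 and 33.7 CPM in OT-II. This death ligand, which kills cells that bear Fas, was lower in all OT-I libraries (-4.15, SE 0.37, adjusted p = 6.4e-07). Its gap between the cell types after saline was -2.93, with 4.31, 1.64 and 5.1 CPM in OT-I and 23.7, 26.5 and 33.8 CPM in OT-II.

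Chemokines of activated T cells were called in 1 direction only: 4 of 8 tested members were higher in OT-I, none in OT-II, and 4 were not called. The shares called over all tested genes were 12.2% and 8.34%. The level of Ccl4 was 109, 91.8 and 54.5 CPM in the OT-I libraries and 0.849, 1.02 and 0.703 CPM in the OT-II libraries. Ccl4 and its relative Ccl3 are chemokines that attract other immune cells, and the OT-I levels of Ccl4 exceeded those of OT-II in every library (6.63, SE 0.47, adjusted p = 6.7e-08). For Ccl3, the OT-I libraries gave 11.7, 10.9 and 4.72 CPM and the OT-II libraries 0.146, 0.335 and 0.0458 CPM. The Ccl3 values again did not overlap (5.69, adjusted p = 1.1e-05), and the log2 fold change was 6.52 without OT-II replicate 2. Xcl1 was at 185, 163 and 93.9 CPM in OT-I and at 13.4, 13.9 and 12.3 CPM in OT-II. Xcl1, which attracts cross-presenting dendritic cells, was higher in OT-I by 3.48 on the log2 scale (adjusted p = 7.8e-07). OT-I replicate 3 was the lowest OT-I library for each of these 3 chemokines. Ccl5, which memory and effector CD8 T cells store as message, was between 41.3 and 78.5 CPM in OT-I and between 6.25 and 14.4 CPM in OT-II (adjusted p = 0.00059).

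Among NK-type receptors, 5 of 20 were called higher in OT-I, none in OT-II and 15 were not called, where 12.2% and 8.34% of all tested genes were called in these directions. After saline, 7 of these receptors were called higher in OT-I and 0 in OT-II. The level of Klrk1 was 39.2, 41.4 and 70.1 CPM in the OT-I libraries and 1.22, 1.61 and 1.56 CPM in the OT-II libraries. Klrk1 encodes NKG2D, an activating receptor for stress ligands, and it was higher in OT-I by 5.10 on the log2 scale (SE 0.44, adjusted p = 4.3e-07). Klrc1, which encodes the NKG2A partner of CD94, had a log2 fold change of 4.40 (adjusted p = 5.8e-05). The summed level of the 14 NK cell markers was between 1229 and 1307 CPM in OT-I and between 300 and 450 CPM in OT-II after A8B1-OVA. Of these markers 2 were called, Il2rb and Cd7, both toward OT-I and both also known from T cells. Ncr1, which defines NK cells, was between 0.379 and 0.819 CPM in OT-I and between 0.498 and 1.66 CPM in OT-II.

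**Figure D2:**
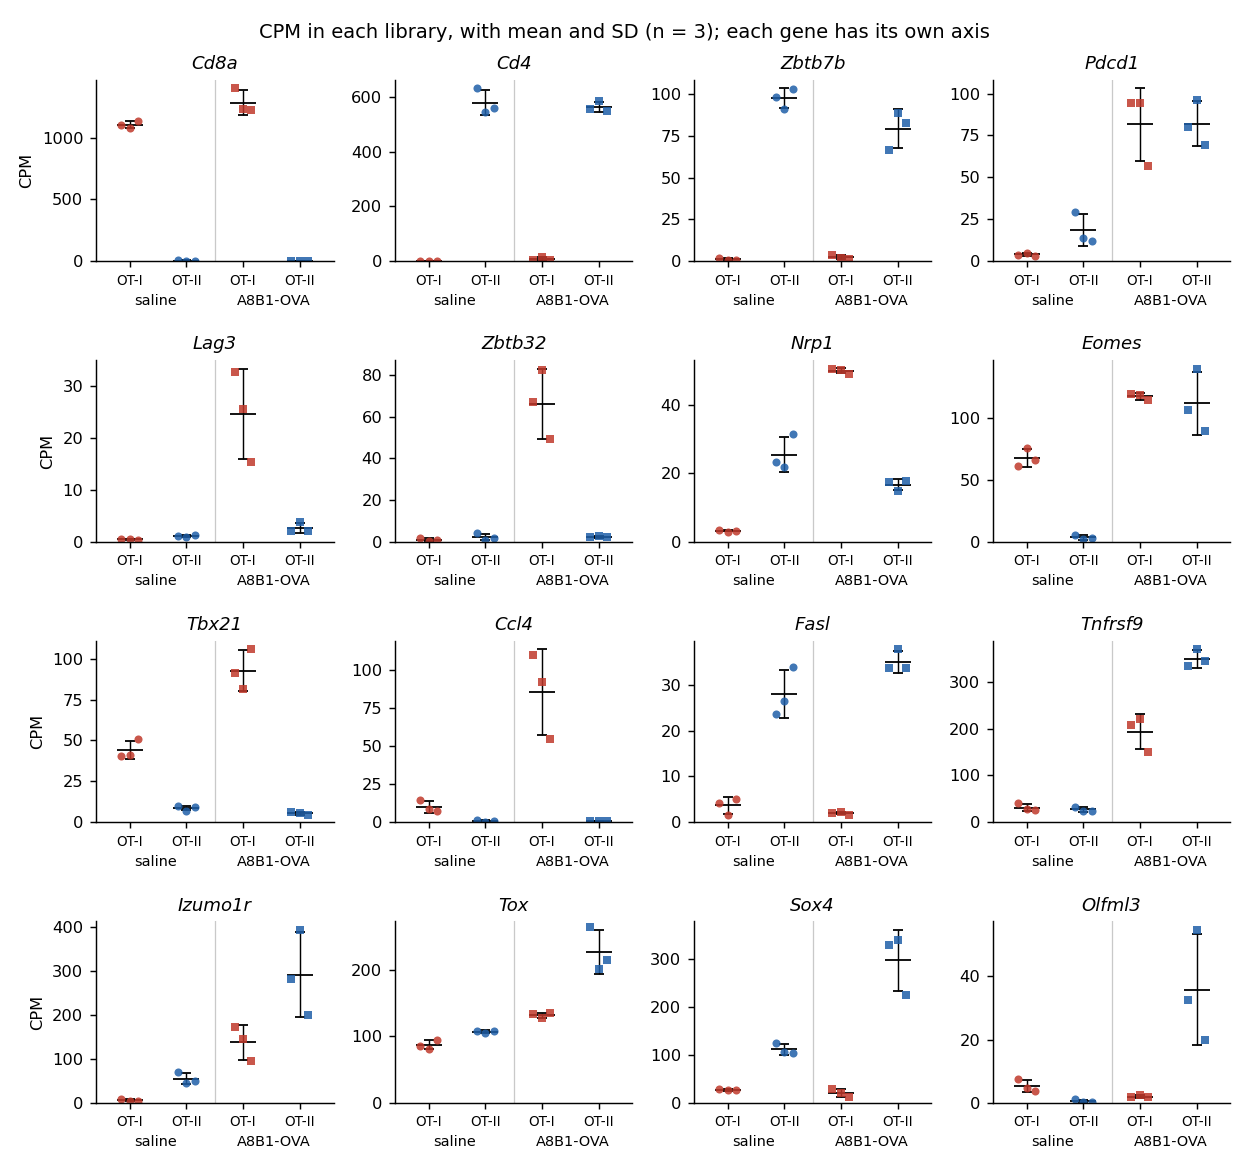
CPM of 16 genes in each library, OT-I in red and OT-II in blue, saline as circles and A8B1-OVA as squares; horizontal bars give the mean and whiskers the SD over n = 3. Each gene has its own axis that starts at 0, and levels are not comparable between genes. Pdcd1 and Eomes end at overlapping levels after A8B1-OVA, whereas Lag3, Zbtb32, Tbx21 and Ccl4 are high in the OT-I libraries and Fasl, Sox4 and Olfml3 in the OT-II libraries.

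Inhibitory receptors were not all alike. Of 19 tested genes for inhibitory receptors and their ligands, 8 were called higher in OT-I, 1 higher in OT-II and 10 were not called, with a median of 0.56. The shares called over all tested genes were 12.2% and 8.34%. The count toward OT-I was 5 without OT-I replicate 2 or without OT-II replicate 1, and 4 without OT-II replicate 3. For Pdcd1, the OT-I libraries gave 94.1, 94.1 and 56.7 CPM and the OT-II libraries 80.3, 96.1 and 69.4 CPM. These levels of PD-1, the receptor for PD-L1, overlapped, with a log2 fold change of -0.0054 and a 95% interval from -0.74 to 0.73 (adjusted p = 1). Lag3 was at 32.7, 25.6 and 15.4 CPM in OT-I and at 2.09, 3.74 and 2.02 CPM in OT-II. Lag3, an inhibitory receptor that binds class II molecules, did separate the groups (3.23, SE 0.43, adjusted p = 6.2e-05). The level of Ctla4 was 77, 62.8 and 61.2 CPM in the OT-I libraries and 36.5, 34.2 and 21 CPM in the OT-II libraries. Ctla4, a receptor that takes B7 ligands away from Cd28, was higher in OT-I by 1.13 (adjusted p = 0.016), a call that was lost without OT-I replicate 1 (1.02, adjusted p = 0.061 by edgeR) or OT-II replicate 3 (0.91, adjusted p = 0.094).

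Cd160, an inhibitory receptor that CD8 T cells share with NK cells, was at 185, 172 and 152 CPM in OT-I and at 15.9, 20.7 and 15.8 CPM in OT-II (3.28, adjusted p = 5e-09). The single member called toward OT-II was Cd200r1, the receptor for CD200, at 3.88, 9.53 and 7.26 CPM in OT-I and 47.9, 28.7 and 28.5 CPM in OT-II (-2.34, adjusted p = 0.00016). Its ligand gene Cd200 was at 122, 114 and 64 CPM in OT-I and at 134, 176 and 78.6 CPM in OT-II, and these values overlapped (-0.37, 95% interval from -0.99 to 0.25). Tigit was called higher in OT-I (1.48, adjusted p = 0.014) but not without OT-I replicate 2, OT-II replicate 1 or OT-II replicate 3. Havcr2, which encodes TIM-3 and marks terminally exhausted cells, was at or below 0.57 CPM in all 6 libraries.

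The anergy-associated genes divided between the cell types. Of 27 tested members, 9 were called higher in OT-I, 4 higher in OT-II and 14 were not called, and the median was -0.0054, close to that of all tested genes. The shares called over all tested genes were 12.2% and 8.34%. The count toward OT-II was 2 when OT-I replicate 2, OT-I replicate 3, OT-II replicate 1 or OT-II replicate 2 was left out. For Zbtb32, the OT-I libraries gave 67, 82.7 and 49.2 CPM and the OT-II libraries 2.11, 2.75 and 2.12 CPM. Zbtb32, a repressor of T cell activation that lies on chromosome 7 from 30589681 to 30598909 on the minus strand of GRCm38, was high in each OT-I library and low in each OT-II library (4.83, SE 0.60, adjusted p = 5e-05). Nrp1 was at 50.6, 50.1 and 49.1 CPM in OT-I and at 17.4, 14.7 and 17.8 CPM in OT-II. Nrp1, a coreceptor for semaphorins, also separated the groups (1.58, adjusted p = 0.0012). The level of Izumo1r was 172, 144 and 94.7 CPM in the OT-I libraries and 282, 393 and 199.6 CPM in the OT-II libraries. Izumo1r is the folate receptor family member FR4, used with CD73 to mark anergic CD4 T cells; its OT-II libraries were all above the OT-I libraries (-1.09, adjusted p = 0.024), but the call was lost without OT-I replicate 2, OT-I replicate 3, OT-II replicate 1 or OT-II replicate 2. Nt5e, which encodes CD73, had overlapping values and was not called (0.60, 95% interval from 0.0035 to 1.20).

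For Tnfrsf9, the OT-I libraries gave 208, 221 and 150.5 CPM and the OT-II libraries 333, 370.3 and 344 CPM. Tnfrsf9 is the costimulatory receptor 4-1BB, and it was higher in all OT-II libraries (-0.85, adjusted p = 0.0042). Dtx1, a Notch-pathway ubiquitin ligase, was higher in OT-I (0.59, adjusted p = 0.0017). The ubiquitin ligase Cblb (0.28, 95% interval from -0.076 to 0.63) and the diacylglycerol kinase Dgka (0.10, 95% interval from -0.22 to 0.41), both of which damp receptor signals, had overlapping libraries and were not called. Egr3 had 25, 24.6 and 15.4 CPM in OT-I and 16, 28.5 and 27.9 CPM in OT-II, with an interval from -0.76 to 0.45.

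Of 23 transcription factors induced through the T cell receptor, 7 were called higher in OT-II, 2 in OT-I and 14 were not called, beside 8.34% and 12.2% of all tested genes. Without OT-I replicate 2, or without OT-II replicate 1, 4 were called toward OT-II, and without OT-I replicate 1, OT-I replicate 2 or OT-II replicate 3, 1 was called toward OT-I. Nr4a1 was at 187, 133 and 144 CPM in OT-I and at 481, 436 and 505 CPM in OT-II. Nr4a1, which encodes Nur77 and rises within hours of receptor signalling, did not overlap between the groups (-1.61, SE 0.30, adjusted p = 0.0011). The level of Egr1 was 210.4, 169 and 181 CPM in the OT-I libraries and 496, 378 and 387 CPM in the OT-II libraries. Egr1 was lower in every OT-I library (-1.17, adjusted p = 0.00085). Egr2 was called as well (-0.69, adjusted p = 0.041), but the call was lost when any 1 of the 6 libraries was left out.

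For Jun, the OT-I libraries gave 272, 118 and 126 CPM and the OT-II libraries 979, 500.2 and 411 CPM. Jun and its partners form the AP-1 complex, and replicate 1 was the highest library in both cell types. The log2 fold changes of Jun and Junb were -1.87 (adjusted p = 0.0051) and -1.53 (adjusted p = 0.0047), and neither gene's groups overlapped. Fos values did overlap, and its log2 fold change of -1.51 (adjusted p = 0.047) was -0.74 without OT-II replicate 1, and was not called without that library, OT-I replicate 2 or OT-I replicate 3. The members called toward OT-I were Myc, the driver of growth (0.94, adjusted p = 8.6e-06), and Irf4, whose call (0.63, adjusted p = 0.026) was lost without OT-I replicate 1, OT-I replicate 2 or OT-II replicate 3.

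Costimulatory receptors were called higher in OT-II for 7 of 15 members and higher in OT-I for 3. The shares over all tested genes were 8.34% and 12.2%. Cd28 was at 241, 239.5 and 261 CPM in OT-I and at 501, 472 and 569 CPM in OT-II. Cd28, the receptor for B7 molecules, was higher in all OT-II libraries (-1.06, adjusted p = 1.8e-06). Tnfrsf4, which encodes OX40, was at 1.56, 2.63 and 1.79 CPM in OT-I and at 18.5, 20.3 and 11.4 CPM in OT-II (-3.07, adjusted p = 4.7e-05). Cd40lg, through which CD4 T cells help B cells and dendritic cells, had a log2 fold change of -3.18 (adjusted p = 1.7e-05). Toward OT-I, Cd226, an activating receptor that competes with Tigit, was at 127, 133 and 186 CPM against 52.7, 41.3 and 45.3 CPM (1.68, adjusted p = 1.3e-07).

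Of 37 tested transcription factors of T cell fate, 14 were called higher in OT-II, 9 higher in OT-I and 14 were not called. Over all tested genes, 8.34% were called higher in OT-II and 12.2% higher in OT-I. The level of Sox4 was 29.1, 19.9 and 12.2 CPM in the OT-I libraries and 328, 339 and 224 CPM in the OT-II libraries. Sox4, a high-mobility-group factor, was the largest of these differences after Zbtb7b among the factors called toward OT-II (-3.87, SE 0.36, adjusted p = 1.3e-06). For Tox, the OT-I libraries gave 133, 127 and 134 CPM and the OT-II libraries 263, 201 and 214 CPM. Tox, a factor of chronically stimulated T cells, was higher in every OT-II library (-0.78, adjusted p = 2.2e-05). Tcf7, which keeps T cells in a stem-like state, differed less: it was at 1905, 1980.2 and 2022 CPM in OT-I and at 2633, 2597 and 2545 CPM in OT-II (-0.40, adjusted p = 0.0011). Bcl6, the factor of follicular helper cells (-1.16, adjusted p = 0.0017), and Myb (-1.10, adjusted p = 0.00017) were also called toward OT-II.

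Eomes was at 119, 119 and 114 CPM in OT-I and at 106, 139 and 89 CPM in OT-II. Eomes, the T-box factor related to T-bet, had overlapping values (0.074, 95% interval from -0.56 to 0.71, adjusted p = 0.9). Lef1, which works with Tcf7, was not called, with an interval from -0.25 to 0.13. Gata3 was not called either, with an interval from -0.24 to 0.11. Prdm1, which encodes Blimp-1, stayed below 5 CPM in all 6 libraries and was lower in OT-I (-2.62, adjusted p = 7e-04).

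Regulatory and follicular genes did not follow their lists as wholes. Of 20 regulatory T cell-associated members, 6 were called toward OT-II and 5 toward OT-I, and of 20 follicular helper-associated members 5 and 3. Over all tested genes, 8.34% were called toward OT-II and 12.2% toward OT-I. The regulatory count toward OT-I was 3 without OT-II replicate 3. The follicular count toward OT-I was 1 without OT-I replicate 2 or OT-II replicate 3, and that toward OT-II was 3 without OT-II replicate 2. The level of Foxp3 was 0.632, 2.45 and 1.04 CPM in the OT-I libraries and 9.3, 8.83 and 11.1 CPM in the OT-II libraries. Foxp3, the factor that defines regulatory T cells, was low in all 6 libraries and did not overlap (-2.83, adjusted p = 0.00084), with a log2 fold change of -3.53 without OT-I replicate 2. Il2ra, the high-affinity chain of the interleukin 2 receptor, was higher in OT-II (-1.97, adjusted p = 0.0022), and Il2rb, its signalling chain, was higher in OT-I, at 1014, 1005 and 989 CPM against 238, 269 and 179 CPM (2.13, adjusted p = 1.9e-06). Cxcr5, the receptor that leads cells into B cell follicles, had overlapping values of 70.5, 72.3 and 81.9 CPM in OT-I and 80.6, 101 and 53.9 CPM in OT-II (95% interval from -0.66 to 0.53).

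Several cytokine messages were scarce. Of 25 genes on the cytokine list 18 passed the filter on low counts. Of these, 6 were called toward OT-II, 2 toward OT-I and 10 were not called, beside 8.34% and 12.2% of all tested genes. The 6 include Cd40lg and Fasl, which are also members of lists given above. After saline, 8 members of the cytokine list were called toward OT-II and 1 toward OT-I. Il21, a follicular helper cytokine, was at 0, 0.0398 and 0.0278 CPM in OT-I and at 0.615, 0.62 and 1.64 CPM in OT-II. Il4 had no count in the OT-I libraries and was at 0.132, 0.251 and 0.138 CPM in OT-II. Il2 was at 0.822, 1.13 and 0.625 CPM in OT-I and at 1.14, 0.838 and 0.795 CPM in OT-II, values that overlapped (-0.11, 95% interval from -1.34 to 1.13). The Il2 transcripts share 14.8% of their 31-base words with other protein-coding genes, so the level of Il2 is uncertain. Osm and Lta were higher in OT-II by -1.11 (adjusted p = 0.00023) and -0.76 (adjusted p = 0.0051), while Tnfsf14, which encodes LIGHT, was higher in OT-I (2.36, adjusted p = 0.00052).

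Homing receptors and integrins were called toward OT-I for 10 of 32 members and toward OT-II for 3, beside 12.2% and 8.34% of all tested genes. The count toward OT-II was 1 without OT-II replicate 2, without OT-II replicate 3 or with no filter on low counts, and 5 with DESeq2. For Cxcr6, the OT-I libraries gave 244, 248 and 248 CPM and the OT-II libraries 12.5, 14.9 and 13.6 CPM. Cxcr6, a receptor of tissue-resident and liver-homing T cells, did not overlap between the groups (4.17, adjusted p = 2.8e-11). Cxcr3 was at 168, 181 and 191 CPM in OT-I and at 30, 43.8 and 14.4 CPM in OT-II. Cxcr3, the receptor for interferon-induced chemokines, was higher in all OT-I libraries (2.62, adjusted p = 2.2e-05). The level of Itgb1 was 463, 502 and 807 CPM in the OT-I libraries and 137, 126 and 119.9 CPM in the OT-II libraries. Itgb1, the shared beta 1 integrin chain, was also higher (2.21, adjusted p = 1.1e-05). Gpr183, an oxysterol receptor that places cells at the border of B and T cell zones, was higher in OT-II, at 221, 213 and 202 CPM against 77.8, 68.4 and 77 CPM (-1.51, adjusted p = 2.7e-08). The lymph node receptors Ccr7 (95% interval from -0.59 to 0.08) and S1pr1 (95% interval from -0.49 to 0.0067) were not called, although S1pr1 was without OT-I replicate 3 (-0.39).

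The most uniform difference was in the cell cycle. Of 34 tested mitosis genes, 32 were called higher in OT-I and none in OT-II, with a median log2 fold change of 2.37; of 31 DNA replication genes, 29 were called higher in OT-I and none in OT-II, with a median of 1.22. Over all tested genes, 12.2% were called higher in OT-I and 8.34% higher in OT-II. The list members that were not called, Bub1, Aurkb, Gins1 and Pold1, had fitted values of 2.61, 2.50, 1.10 and 0.48. The summed level of the mitosis list was 1581, 3181 and 1140 CPM in the OT-I libraries and 466, 637 and 210 CPM in the OT-II libraries. OT-I replicate 2 was the highest of all, and every OT-I library was above every OT-II library. The calls depend on that library: without OT-I replicate 2, 11 mitosis genes and 17 DNA replication genes were called, and without OT-II replicate 3, the lowest of the OT-II libraries, 18 mitosis genes were. With the spread taken from the 6 libraries alone, 19 DNA replication genes were called. The medians over these alternatives ran from 1.87 to 2.80 for mitosis and from 0.82 to 1.49 for DNA replication. After saline, 2 mitosis genes and 9 DNA replication genes were called higher in OT-I and 0 of either list in OT-II. The saline medians were 0.77 for mitosis and 0.56 for DNA replication.

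**Figure D3:**
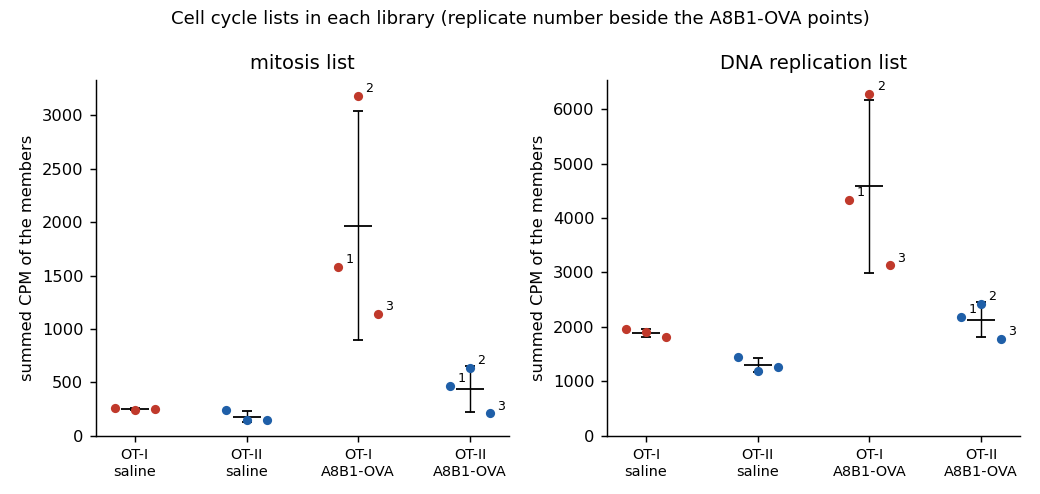
Summed CPM of the 34 mitosis genes and the 31 DNA replication genes in each library after saline and after A8B1-OVA, with mean and SD over n = 3. After A8B1-OVA the OT-I libraries lie above the OT-II libraries in both panels, with OT-I replicate 2 highest at 3181 CPM for mitosis.

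The promoters of these genes are shown because nearly every member of both lists was called. RefSeq windows of the 250 bases before the start site (GRCm38.p6) were found for 29 mitosis and 25 DNA replication genes and searched on both strands for 3 motifs, whose matches may overlap. These were the NF-Y box (CCAAT), the cell cycle homology element (TTTGAA) and a core of E2F sites (TTCCCGC). The NF-Y box occurred in 72.4% of the mitosis windows and in 56% of the DNA replication windows, against 36.5% of 11841 windows, 1 for each tested gene with an entry. The homology element occurred in 31% of the mitosis windows, 8% of the DNA replication windows and 12% of all. The E2F core occurred in 7 of the 25 DNA replication windows (28%), in none of the 29 mitosis windows and in 6.37% of all. In windows of all genes called toward OT-I the shares were 37.9%, 12.3% and 7.3%, and toward OT-II 38.2%, 10.4% and 6.78%. A match is a description of letters and does not show that a factor binds.

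Shown first are 4 mitosis genes whose windows hold both the NF-Y box and the homology element and contain no annotated exon, taken in order of fold change, with matches to these motifs on either strand in capitals. They are Mki67 at chr7:135716380-135716629 (minus strand), Ccnb2 at chr9:70421555-70421804 (minus strand), Top2a at chr11:99024190-99024439 (minus strand) and Kif11 at chr19:37376132-37376381 (plus strand), each printed 5′ to 3′ on the strand of the gene.
Mki67: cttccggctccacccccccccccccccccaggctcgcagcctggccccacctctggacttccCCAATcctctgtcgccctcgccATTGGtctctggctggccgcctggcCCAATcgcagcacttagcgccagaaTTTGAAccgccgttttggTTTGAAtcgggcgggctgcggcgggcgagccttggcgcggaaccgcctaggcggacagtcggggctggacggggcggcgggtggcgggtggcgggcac
Ccnb2: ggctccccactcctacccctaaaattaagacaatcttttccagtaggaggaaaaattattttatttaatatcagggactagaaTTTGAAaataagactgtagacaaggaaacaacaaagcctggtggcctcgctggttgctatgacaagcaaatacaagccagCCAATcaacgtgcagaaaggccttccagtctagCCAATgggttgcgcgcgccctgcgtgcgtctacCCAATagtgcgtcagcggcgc
Top2a: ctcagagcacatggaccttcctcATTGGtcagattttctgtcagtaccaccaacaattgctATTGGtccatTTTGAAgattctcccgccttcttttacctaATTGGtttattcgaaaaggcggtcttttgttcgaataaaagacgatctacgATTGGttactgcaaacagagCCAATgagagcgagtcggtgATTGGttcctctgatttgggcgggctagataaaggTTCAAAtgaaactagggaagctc
Kif11: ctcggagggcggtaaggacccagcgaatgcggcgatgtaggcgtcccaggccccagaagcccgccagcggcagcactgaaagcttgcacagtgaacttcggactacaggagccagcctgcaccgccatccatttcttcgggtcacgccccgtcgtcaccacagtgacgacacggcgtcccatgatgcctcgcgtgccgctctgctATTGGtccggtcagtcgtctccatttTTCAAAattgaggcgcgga

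The next are the windows of the 2 DNA replication genes that hold the E2F core and no annotated exon, with that motif in capitals. They are Rrm1 at chr7:102441445-102441694 (plus strand) and Pola1 at chrX:93632156-93632405 (minus strand).
Rrm1: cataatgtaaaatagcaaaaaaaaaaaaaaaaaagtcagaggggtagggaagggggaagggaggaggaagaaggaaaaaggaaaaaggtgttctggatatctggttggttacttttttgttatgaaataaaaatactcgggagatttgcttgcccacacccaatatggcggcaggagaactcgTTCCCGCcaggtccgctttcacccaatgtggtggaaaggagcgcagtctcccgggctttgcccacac
Pola1: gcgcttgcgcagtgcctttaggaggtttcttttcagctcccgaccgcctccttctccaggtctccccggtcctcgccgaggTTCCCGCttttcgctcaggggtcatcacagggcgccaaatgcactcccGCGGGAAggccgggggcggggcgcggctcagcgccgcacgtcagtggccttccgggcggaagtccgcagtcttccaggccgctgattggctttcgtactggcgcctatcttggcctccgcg

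For Mki67, the OT-I libraries gave 71.1, 153 and 70.9 CPM and the OT-II libraries 13.5, 20.6 and 4.46 CPM. Mki67 encodes the proliferation antigen Ki-67, and every OT-I library was above every OT-II library (2.94, SE 0.61, adjusted p = 0.0032). Top2a was at 105, 198 and 70 CPM in OT-I and at 26.2, 36.6 and 9.29 CPM in OT-II. Top2a, the topoisomerase that untangles chromosomes, followed the same order of libraries (2.37, adjusted p = 0.0023). Ccnb2, a mitotic cyclin, was called (2.69, adjusted p = 0.016) but not without OT-I replicate 2 (2.21), OT-II replicate 1 (2.73) or OT-II replicate 3 (2.18), and was 3.43 without OT-II replicate 2, and Kif11, a spindle motor, had a log2 fold change of 2.33 (adjusted p = 0.0036). The level of Rrm1 was 191, 359 and 155 CPM in the OT-I libraries and 115, 115 and 79.8 CPM in the OT-II libraries. Rrm1, the large subunit of ribonucleotide reductase, differed by less (1.18, adjusted p = 0.00087), as did Pola1, a subunit of the polymerase that starts DNA strands (1.05, adjusted p = 0.0026). Of 14 tested inhibitors of cyclin-dependent kinases and other antiproliferative genes, 5 were called higher in OT-II and 1 in OT-I. The shares over all tested genes were 8.34% and 12.2%. With the spread taken from the 6 libraries alone, or without OT-II replicate 1, 3 of these inhibitors were called toward OT-II. The count toward OT-I was 0 without OT-I replicate 1, OT-I replicate 2, OT-II replicate 1 or OT-II replicate 3, and 2 without OT-I replicate 3 or OT-II replicate 2.

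Glycolysis genes were called toward OT-I for 11 of 24 members and toward OT-II for 3, with a median of 0.56. The shares over all tested genes were 12.2% and 8.34%. For Tpi1, the OT-I libraries gave 255, 278 and 140.0 CPM and the OT-II libraries 66.9, 113 and 62.4 CPM. Tpi1, triose phosphate isomerase, did not overlap between the groups (1.47, adjusted p = 1e-04). Hk2 was at 9.75, 10.9 and 6.29 CPM in OT-I and at 1.16, 2.78 and 0.627 CPM in OT-II. Hk2, the inducible hexokinase, was low but higher in OT-I (2.56, adjusted p = 0.00097), with 3.33 when OT-II replicate 2 was left out. Slc2a3, a glucose transporter, was higher by 1.51 (adjusted p = 5.6e-06). The lactate dehydrogenase subunits went in opposite directions: Ldha was higher in OT-I (0.76, adjusted p = 0.00019), and Ldhb was at 14.7, 18.1 and 8.42 CPM in OT-I against 99.2, 91.3 and 71.3 CPM in OT-II (-2.67, adjusted p = 5.4e-06).

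Apoptosis regulators were called toward OT-I for 9 of 27 and toward OT-II for 4, beside 12.2% and 8.34% of all tested genes. The first count was 5 without OT-I replicate 2 or OT-II replicate 3. The level of Bbc3 was 49.5, 26.3 and 42.6 CPM in the OT-I libraries and 8.99, 8.03 and 6.53 CPM in the OT-II libraries. Bbc3, which encodes the killer protein PUMA, was higher in all OT-I libraries (2.33, adjusted p = 1.7e-06). Bcl2, which protects cells, had overlapping values of 109.8, 81.6 and 139 CPM and 112, 90.1 and 111 CPM (95% interval from -0.30 to 0.46). Interferon-stimulated genes were called toward OT-I for 10 of 39 and toward OT-II for 4, beside 12.2% and 8.34% of all tested genes. The first of these counts was 4 without OT-I replicate 1, 6 without OT-I replicate 3 or OT-II replicate 1, and 3 with the spread taken from the 6 libraries alone. Oas3, a sensor of double-stranded RNA, was at 86.7, 75.6 and 96.4 CPM in OT-I and 20.4, 24.7 and 26.7 CPM in OT-II (1.85, adjusted p = 6.7e-05), and Iigp1, an immunity-related GTPase, was at 6.47, 4.38 and 6.93 CPM and 53.2, 36.6 and 57 CPM (-3.04, adjusted p = 0.00011).

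Genes of proximal receptor signalling were called toward OT-I for 10 of 44 and toward OT-II for 7, with a median of 0.04, beside 12.2% and 8.34% of all tested genes. The count toward OT-I was 6 without OT-II replicate 3 and 6 with the spread of the 6 libraries alone, and the count toward OT-II was 2 without OT-I replicate 2 and 4 without OT-II replicate 1. Cytokine receptors and suppressors of cytokine signalling were called toward OT-II for 8 of 30 and toward OT-I for 5. Without OT-I replicate 2 or OT-II replicate 1 the first became 4 and 5, and without OT-I replicate 3 the second became 3. Among them, Tgfbr3, the accessory receptor for TGF-beta, was at 14.1, 17.6 and 13.1 CPM in OT-I and 116, 91.6 and 137 CPM in OT-II (-2.95, adjusted p = 2.3e-06). Ifngr2, the signalling chain of the interferon gamma receptor, was at 20.4, 19.4 and 19.8 CPM and 76.1, 75.4 and 85.7 CPM (-1.99, SE 0.16, adjusted p = 3.3e-08). Of 29 resting and memory-associated genes, 9 were called toward OT-II and 6 toward OT-I, beside 8.34% and 12.2% of all tested genes.

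**Figure D4:**
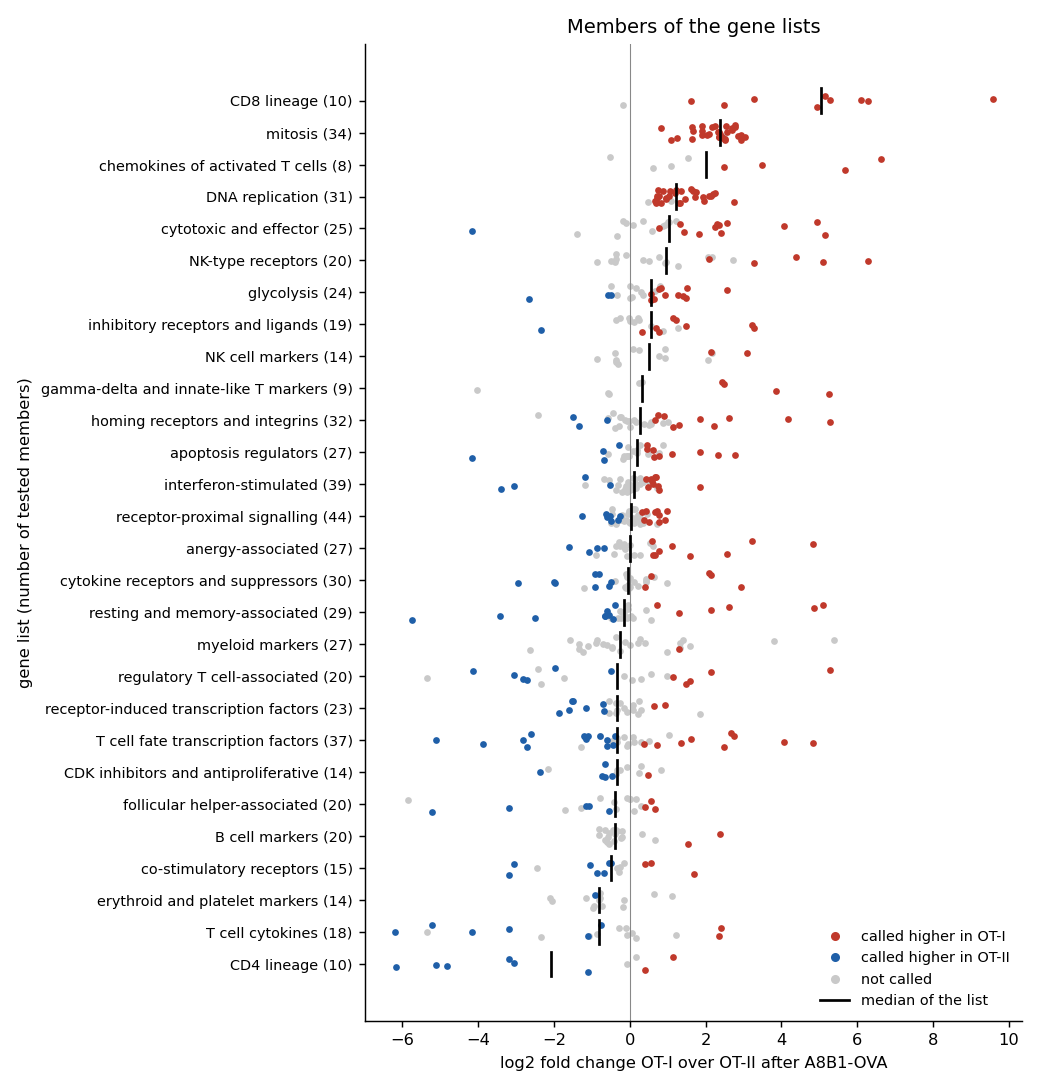
log2 fold change of OT-I over OT-II after A8B1-OVA for each tested member of the 28 gene lists, ordered by the list median (black bar), with called members in red (OT-I) or blue (OT-II). All mitosis and DNA replication members lie to the right of 0, whereas the lists of fate factors, regulatory and anergy-associated genes reach to both sides.

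Markers of other cells were present in both groups. The summed level of 20 B cell markers was between 213 and 407 CPM in OT-I and between 206 and 448 CPM in OT-II, and that of 27 myeloid markers between 222 and 261 CPM and between 262 and 335 CPM. Cd79a, a signalling chain of the B cell receptor, was between 5.98 and 15 CPM in OT-I and between 9.83 and 20.7 CPM in OT-II. Called toward OT-I were Cd22, Cd79b and Xcr1, and toward OT-II the erythroid gene Car2. Each of these calls was lost without at least 1 of the 6 libraries. In other fits, myeloid markers were called toward OT-II. There were 3 with the spread taken from the 6 libraries alone, 2 with DESeq2 and 1 with treatment and replicate number together as a block. Without 5 libraries of the series with raised markers of other cells, 3 were called toward OT-II. Of the 20 B cell markers, 4 had a positive and 16 a negative log2 fold change, with a median of -0.40. Among the 27 myeloid markers these numbers were 12 and 15, with a median of -0.26. Among 14 tested erythroid and platelet markers they were 2 and 12, with a median of -0.81. The sum of 16 erythroid and platelet markers was between 108 and 253 CPM in OT-I and between 186 and 387 CPM in OT-II. Of 9 gamma-delta and innate-like T markers, 4 were called toward OT-I, among them Sox13, Cd163l1 and Il23r, beside 12.2% of all tested genes. The summed level of this list was between 23.3 and 35 CPM in OT-I and between 12.3 and 14.4 CPM in OT-II. The part of these cells in the differences above was not tested.

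Whether the gap between the cell types differed from the gap after saline was tested as an interaction. The change of the log2 gap was called for 66 of 15235 genes (0.433%), with 47 moved toward OT-I (0.309%) and 19 toward OT-II (0.125%). The first count ran from 20 to 83 and the second from 8 to 28 when single libraries of the 4 groups were left out. Without the saline libraries with raised markers of other cells (replicate 1 of each cell type) and 3 other such libraries of the fit, 17 and 14 genes were called. DESeq2 called 161 and 87, and a fit with treatment and replicate number together as a block called 75 and 26.

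Toward OT-I the largest called changes at 10 CPM or more were those of Zbtb32, Nrn1, Nrgn, Nrp1, Lag3 and Ptms, and Ccl3 had a change of similar size. Zbtb32 was at 1.74, 0.492 and 0.982 CPM in OT-I and at 4.11, 0.898 and 1.82 CPM in OT-II after saline, values that overlapped (change of the gap 5.92, adjusted p = 0.0025; 5.19 without OT-II saline replicate 1). Nrp1 crossed over. After saline it was at 3.31, 2.97 and 3.25 CPM in OT-I and at 23.3, 21.7 and 31.5 CPM in OT-II, the reverse of its order after A8B1-OVA (change 4.59, adjusted p = 4.2e-05). Lag3 was at 0.47, 0.537 and 0.359 CPM in OT-I and 1.2, 0.849 and 1.22 CPM in OT-II after saline (change 4.48, adjusted p = 0.0018). Itgb1 was at 124, 113 and 122 CPM in OT-I and 147, 130.3 and 169 CPM in OT-II after saline (change 2.53, adjusted p = 0.002). Nrn1, neuritin, was at 21.9, 23.6 and 14 CPM in OT-I and at 3.22, 3.2 and 2.23 CPM in OT-II after A8B1-OVA, against 0.389, 0.641 and 0.17 CPM and 2.76, 2.07 and 2.06 CPM after saline (change 5.28, adjusted p = 0.00014). Ctla4 had the gap -1.24 after saline and 1.13 after A8B1-OVA (change 2.37, adjusted p = 0.019 by edgeR). This change was not called when OT-I replicate 1, OT-II replicate 3, OT-I saline replicate 2 or 3, or OT-II saline replicate 1 was left out. It was also not called without the libraries with raised markers. The call for Ccl3 (4.66, adjusted p = 0.015 by edgeR) was lost without OT-II replicate 1, OT-I saline replicate 2 or 3, or the libraries with raised markers. That for Nrgn (5.04, adjusted p = 0.0062) was lost without the libraries with raised markers, and its change was 4.41 when OT-II saline replicate 1 was left out. Gata3, a factor of type 2 helper cells that was not called after A8B1-OVA, was at 56.2, 58.9 and 62.8 CPM in OT-I and at 105, 106 and 105 CPM in OT-II after saline (change 0.77, adjusted p = 0.0025; 0.71 and not called without the libraries with raised markers).

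Toward OT-II the largest called changes at 10 CPM or more were those of Olfml3, Eomes, Colq, Trpm1, Cxxc5 and Pmepa1. For Olfml3, the OT-I libraries gave 1.71, 2.57 and 1.71 CPM and the OT-II libraries 32.6, 54.6 and 19.9 CPM. After saline the order was the reverse, with 7.38, 4.7 and 3.66 CPM in OT-I and 1.1, 0.425 and 0.15 CPM in OT-II (change -7.39, adjusted p = 8e-05; -8.28 without OT-II saline replicate 1). Olfml3 encodes a secreted olfactomedin-like protein, and the gene lies on chromosome 3 from 103722222 to 103738001 on the minus strand. The Pmepa1 call (-1.60, adjusted p = 0.023 by edgeR) was lost when any 1 of 8 libraries was left out, and without the libraries with raised markers. The Trpm1 call (-2.27, adjusted p = 0.0024) was lost without the libraries with raised markers. Eomes, whose libraries overlapped after A8B1-OVA, was at 61.2, 75.3 and 65.5 CPM in OT-I and at 5.54, 2.43 and 2.63 CPM in OT-II after saline, without overlap (change -4.18, SE 0.45, adjusted p = 8e-05). Colq, a collagen-like anchor of acetylcholinesterase, was at 4.21, 5.55 and 4.83 CPM in OT-I and at 21.5, 18.8 and 17.6 CPM in OT-II after A8B1-OVA, and at 3.96, 3.48 and 3.91 CPM and 3.94, 2.87 and 1.97 CPM after saline (change -2.36, adjusted p = 0.0017). Ifngr2, lower in OT-I after both treatments, had a change of -1.14 (adjusted p = 0.019) that was not called without OT-I replicate 2, OT-II replicate 3, or replicate 1 or 3 of OT-I saline.

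Some differences of over 4-fold between the gaps did not pass the test. Pdcd1 was at 3.88, 5.13 and 3.34 CPM in OT-I and at 29.3, 13.8 and 12.3 CPM in OT-II after saline, and its change of 2.16 had adjusted p = 0.079. Klrk1 (2.68, adjusted p = 0.058), Izumo1r (2.10, adjusted p = 0.058) and Ccl4 (2.87, adjusted p = 0.079) had changes of this kind, although each was called in the same direction after both treatments. No mitosis gene and no DNA replication gene had a called change of the gap; for Mki67 the change was 1.61, with a 95% interval from -0.24 to 3.46.

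**Figure D5:**
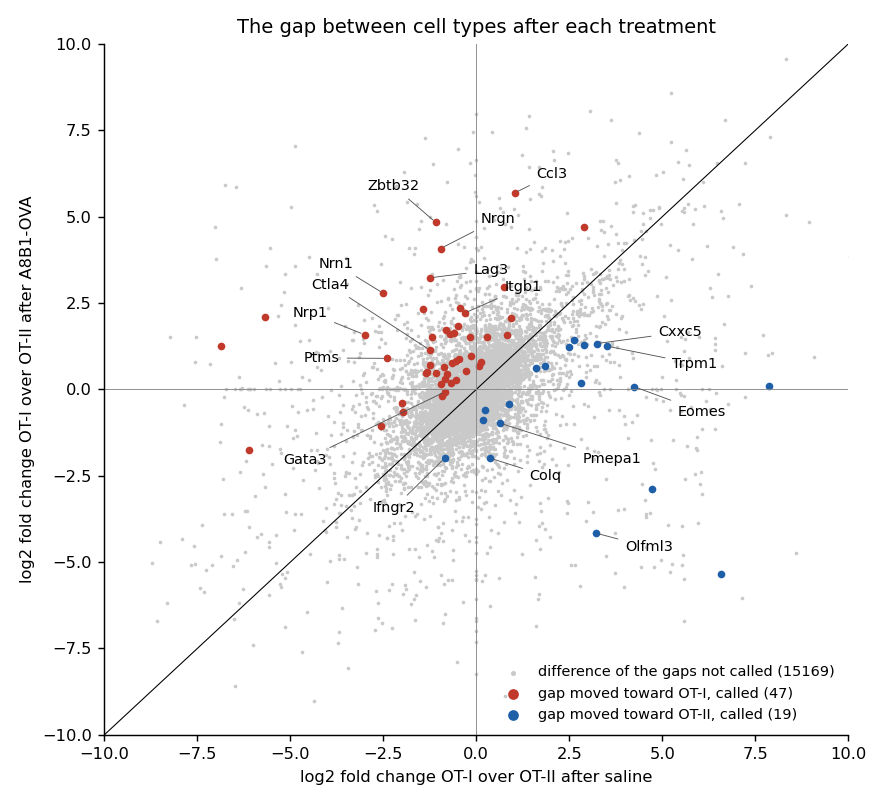
log2 fold change of OT-I over OT-II after saline (x axis) and after A8B1-OVA (y axis) for the tested genes, with the 66 genes whose gap changed in colour; 2 genes lie outside the axes, which end at 10. Genes on the diagonal have the same gap after both treatments; Zbtb32, Nrgn and Lag3 lie above it, Eomes lies near a gap of 0 after A8B1-OVA, and Olfml3 lies below it.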

How the data were processed

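RNA was measured in 23 libraries of 8 groups, which were both cell types after A8B1-OVA, saline, molar-equivalent OVA and higher-dose OVA. The tools named are bcl2fastq and kallisto 0.46.1, per the submitters' processing notes. The authors deposited 1 table of estimated counts for 21900 genes, all whole numbers, named against GRCm38. The annotation release and the use of strand were not given in the sources used here. Gene positions were taken from GENCODE M21, in which 21806 identifiers were found; 27 symbols altered to dates were restored by identifier. Libraries were grouped by title and source label.

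Genes were kept by edgeR 4.0.16 (R 4.3.3) (filterByExpr, at least 10 counts in enough libraries and 15 in all), which left 15235. All 23 libraries entered 1 quasi-likelihood fit with TMM scaling, 1 coefficient per group and no covariate, and p-values were adjusted by Benjamini-Hochberg over all tested genes, with calls under 0.05. The script was tested on simulated data. CPM were computed from the deposited counts and the scaled library size, and a count of 0 was read against a floor of 3 counts, which covers counting error only. Alternatives were RLE scaling, no filter, the compared groups alone, DESeq2 1.42.0, replicate blocks and each library left out.

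Named genes were the 12 highest and 12 lowest called genes at a mean of 10 CPM or more without overlap, 6 and 6 for the change of the gap, a panel of 86, and up to 6 members per list by adjusted p. A few others were named after their values were seen. The members and the 28 lists (541 genes) were chosen with earlier results of these data known. Words of 31 bases shared between transcripts were counted, and promoter sequences came from RefSeq (GRCm38.p6).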

Additional observations from a re-analysis of the deposited data

Results flagged for a closer look

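The following genes are listed because the log2 gap between OT-I and OT-II after A8B1-OVA differed from the gap after saline by the interaction test of edgeR. No formal outlier test was applied to groups of 3 libraries.

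Among receptors and adhesion molecules, the gap moved toward OT-I by 4.48 for Lag3, 4.59 for Nrp1, 2.37 for Ctla4, 2.53 for Itgb1, 0.598 for Itgb7 and 1.52 for P2rx7. The Itgb7 call was lost when any 1 of 8 libraries was left out, with the compared groups alone and without the libraries with raised markers. The P2rx7 call was lost without OT-II A8B1-OVA replicate 3, without OT-I saline replicate 2 or 3, and without the libraries with raised markers. The gap moved toward OT-II by -1.14 for Ifngr2, a chain of the interferon gamma receptor. Among transcription regulators, the change was 5.92 for Zbtb32, 0.767 for Gata3, -4.18 for Eomes and -1.91 for Cxxc5.

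The chemokine gene Ccl3 changed by 4.66, the calmodulin-binding protein neurogranin (Nrgn) by 5.04, neuritin (Nrn1) by 5.28, parathymosin (Ptms) by 3.3 and the interferon-stimulated gene Ifi27l2a by 1.43. The Ifi27l2a call was lost in 10 of the 12 fits that left out 1 library, with the compared groups alone and without the libraries with raised markers. Toward OT-II the changes were -7.39 for Olfml3, -2.36 for Colq, -2.27 for Trpm1 and -1.6 for Pmepa1. The calls for Ctla4, Ccl3, Nrgn, Gata3, Trpm1 and Pmepa1 were lost without the libraries with raised markers. Those for Ctla4, Ccl3, Pmepa1 and Ifngr2 were also lost without single libraries, as given above. B cell, myeloid and erythroid or platelet marker sums were higher in replicate 1 of each saline group than in the other saline libraries of the same cell type. The part of these markers in the changes above was not tested.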

How the results depend on the processing

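RLE scaling and no filter on low counts left the counts of calls over all tested genes within 1.5 times those reported, and 99.2% and 93.5% of the 3135 calls after A8B1-OVA were shared. DESeq2 shared 99.3% of them, with genes whose adjusted p it does not give left uncounted. The fit to the 6 libraries alone called 1062 genes toward OT-I and shared 57.2%. Leaving out 1 library at a time gave 1072 to 2269 calls toward OT-I and 751 to 1448 toward OT-II after A8B1-OVA, with 56.9% to 87.1% of the calls shared. For the change of the gap it gave 20 to 83 and 8 to 28, and DESeq2 gave 161 and 87. Without the 5 libraries with raised markers of other cells, an alternative chosen after seeing the data, 644 genes were called toward OT-II after saline and 17 gaps moved toward OT-I. Same-numbered OT-I and OT-II libraries after A8B1-OVA had correlated deviations from their group means of 0.0119, 0.164 and 0.248, and after saline of 0.281, 0.129 and 0.128. Each correlated best with its own number after saline, but OT-I replicate 1 after A8B1-OVA did not, and the numbers were not taken as pairs. With the replicate block 1832 and 1269 genes were called after A8B1-OVA, 1285 and 1097 after saline, and 39 and 20 gaps. With treatment and replicate number together as a block, also added after seeing the data, 75 gaps moved toward OT-I. Single genes were followed through the alternatives only for a set of 157 named genes, and for the change of the gap only where it was called. Among these values, no alternative reversed the direction of a called value. Of them, 2275 kept their side of the threshold, 126 lost a call and 16 gained one, with values lacking an adjusted p left out. The cause of these shifts was not tested, and the fits with libraries left out also hold fewer samples. Levels near the floor of 3 counts, 0.0416 to 0.0632 CPM in the A8B1-OVA libraries, rest on few counts.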
